A study of Danio rerio with 12 samples.

Results

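The genes described here are 5 markers of the pineal organ and of melatonin synthesis in zebrafish, namely exorh, aanat1, aanat2, asmt and bsx. They were chosen by gene symbol, and all 5 were found among the 32057 Ensembl genes measured in whole zebrafish embryos. The embryos were wild type, were kept in 0, 6, 30 or 50 µg/L methylmercury (MeHg) from 4 to 72 h post-fertilisation (hpf), and gave 3 libraries per group and 12 in all. The stated aim of the study was to find marker genes of MeHg toxicity in embryos, and poly(A) RNA of the whole embryo was sequenced. The control group is labelled untreated, with a concentration of 0 µg/L, and the labels give no other agent or allele for any group. The labels do not tell whether samples within a group are from different clutches, whether embryos were pooled, or at what time of day they were collected. The p-values below therefore measure the spread between these samples, which may be technical.

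The pineal organ of fish is a photoreceptor organ on the roof of the forebrain that senses light directly and releases the hormone melatonin at night. Its photoreceptor cells resemble rods and cones and carry their own opsin, exo-rhodopsin, encoded by exorh. Melatonin is made from serotonin: arylalkylamine N-acetyltransferase acetylates it and acetylserotonin O-methyltransferase, encoded by asmt, adds a methyl group. Zebrafish have 2 aanat genes in this set, aanat2, which is mainly pineal and rhythmic under the circadian clock, and aanat1, which is mainly retinal. The homeobox gene bsx encodes a transcription factor needed for the zebrafish pineal complex, and it is also expressed in the hypothalamus.

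In GRCz11 coordinates as deposited, exorh (ENSDARG00000111860) spans 54302700 to 54304381 on the minus strand of chromosome 8. The retinal gene of the pair, aanat1 (ENSDARG00000036567), spans 23616893 to 23619428 on the minus strand of chromosome 6, and aanat2 (ENSDARG00000079802) spans 54887782 to 54893706 on the plus strand of chromosome 3. The position of asmt (ENSDARG00000098249) is 55730059 to 55744713 on the minus strand of chromosome 9, and that of bsx (ENSDARG00000068976) is 29890535 to 29892486 on the minus strand of chromosome 10. The exonic sizes were 1242 bases for exorh, 1609 for aanat1, 1446 for aanat2, 1229 for asmt and 977 for bsx, all under the median of 2307 bases over the genes tested. The genes were weakly expressed in the whole embryo, with 5 to 121 reads per gene and library, and counting error is therefore part of every value.

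The 12 libraries held between 15665053 and 22207603 counted reads. Control replicate 3 differed from both other controls, with a Spearman correlation across genes of 0.927 with control replicate 1 and 0.944 with control replicate 2. Those were correlated at 0.991 with each other. Control replicate 3 was closer to the exposed libraries at 6 µg/L (0.966 to 0.973) and 30 µg/L (0.957 to 0.960) than to control replicate 1. Control replicates 1 and 2 had correlations of 0.923 to 0.947 with the libraries at 30 µg/L. Which of the controls is unusual cannot be told from these values, and the labels give no reason. The biological coefficient of variation (the relative spread between replicates) was 0.312 among the controls and 0.103, 0.0781 and 0.0643 at 6, 30 and 50 µg/L. Rod opsin and some genes of photoreceptor identity were many-fold higher in control replicate 3, as given below, so values that it moves are also given without it. Levels of a gene are given in CPM (counts scaled to a common library size, with TMM factors). Where genes are set beside each other, levels are in FPKM, which also divide by exonic size. All 5 genes passed the filter of a mean of at least 0.5 FPKM over the 12 libraries, as did 19821 genes in all.

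Among the 5 genes, the pineal acetyltransferase gene aanat2 showed the clearest differences between doses, being highest at 6 µg/L and lowest at 30 µg/L, and aanat1 was lower at 50 µg/L than in the controls. Differences were called at an adjusted p under 0.05 by the edgeR quasi-likelihood test over all 19821 genes. At 6 µg/L, 1 of the 5 genes was called against control, a rise of aanat2, where 14.4% of all genes tested were called and 5.48% rose. At 30 µg/L, 1 was called, a fall of aanat2, where 30.8% of all genes were called and 17.3% fell. At 50 µg/L, 1 was called, a fall of aanat1, where 39.5% of all genes were called and 21.9% fell. Between 30 and 6 µg/L, 2 were called, falls of aanat2 and bsx, where 15.6% of all genes were called and 8.44% fell. Between 50 and 30 µg/L, 1 was called, a rise of aanat2, where 8.62% of all genes were called and 4.18% rose. The fit behind the shares between doses includes the controls, which spread more than the exposed groups. With only the compared groups fitted, 6743 genes were called between 30 and 6 µg/L and 5880 between 50 and 30 µg/L. The main fit called 3086 and 1708. That fit shares its estimate of the spread between groups, so comparisons with the controls also draw on the smaller spread of the exposed groups. Against control, the compared groups alone gave 547, 2314 and 4413 genes at 6, 30 and 50 µg/L, where the main fit called 2846, 6103 and 7824. With so few genes the counts among the 5 are not read against the background shares beyond that, and the genes are described one at a time. In CPM, groups that did not overlap, in either direction, were seen for 2 of the 5 genes at 6, 30 and 50 µg/L against control. The shares of all genes were 25.9%, 37.5% and 44.2%. They were seen for 2 genes between 30 and 6 µg/L (46.5% of all genes) and for 1 between 50 and 30 µg/L (43.3%). The overlaps with the controls depended on the scaling, as given below for exorh and bsx. The 3 comparisons with the control share the same 3 control libraries.

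**Figure D1:**
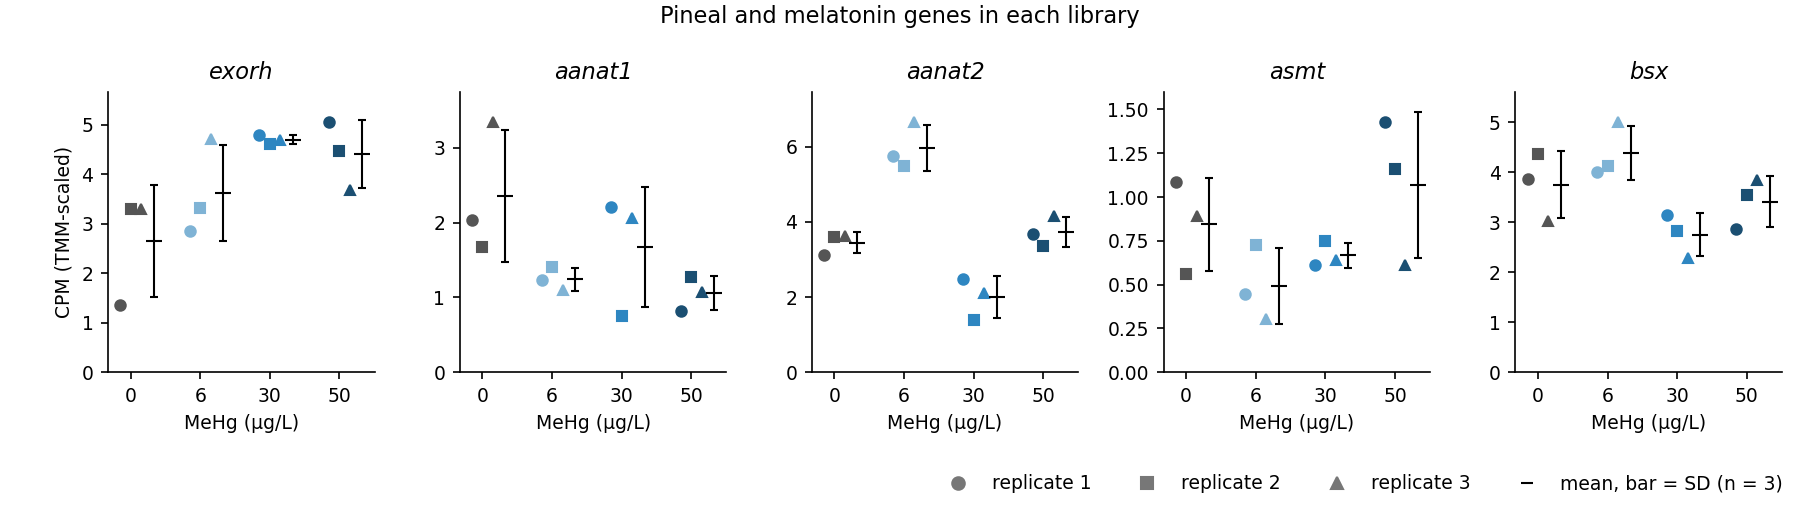
Level of each gene (y axis, TMM-scaled CPM, starting at 0) by MeHg concentration (x axis, µg/L). Each point is a library, its shape gives the replicate number, and the horizontal mark and bar are the mean and SD of 3 libraries. The 3 libraries at 6 µg/L lie between 5.49 and 6.66 CPM for aanat2 and those at 30 µg/L between 1.38 and 2.49.

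The pineal opsin gene exorh was not lower in any exposed group than in the controls. The control libraries held 1.36, 3.30 and 3.30 CPM, with control replicate 1 the low one. At 6 µg/L the values were 2.84, 3.31 and 4.70 CPM, at 30 µg/L 4.79, 4.61 and 4.68 CPM, and at 50 µg/L 5.06, 4.47 and 3.69 CPM. In CPM, the groups at 30 and 50 µg/L lay wholly above the controls, and the group at 6 µg/L overlapped them. In FPKM, which use summed counts without TMM factors, replicate 3 at 50 µg/L (2.87) was just below control replicate 3 (2.89). The group at 50 µg/L thus overlapped the controls on that scale.

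The log2 fold change of exorh against control was 0.41 ± 0.29 (SE) at 6 µg/L, with an adjusted p of 0.354 by edgeR. It was 0.80 ± 0.29 at 30 µg/L (adjusted p = 0.0517 by edgeR, 95% interval 0.17 to 1.42) and 0.70 ± 0.29 at 50 µg/L (adjusted p = 0.0713 by edgeR, 95% interval 0.08 to 1.33). Neither passed the threshold, so no rise is called. The call was sensitive to the setting, since exorh at 30 µg/L passed with DESeq2 (0.82, adjusted p = 0.0230) and without control replicate 3 (0.94, adjusted p = 0.00669 by edgeR). Without that library the value at 50 µg/L was 0.85 (adjusted p = 0.0133 by edgeR). On leaving it out, 61.8% and 62.8% of all genes were called at 30 and 50 µg/L, so calls in that setting are not particular to exorh. Without control replicate 1, the low library, the values were smaller and not called, at 0.14, 0.52 and 0.44 at 6, 30 and 50 µg/L (adjusted p = 0.777, 0.118 and 0.159 by edgeR). Without replicate 3 at 6 µg/L, the value there was 0.20. The lower ends of the intervals at 30 and 50 µg/L lay above 0, and that at 6 µg/L was −0.22.

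In the eye, the opsin genes of the cones were lower at every dose. Of 10 visual opsin genes of the eye, 6 passed the filter on low values; 5 of these fell at 6 µg/L, 5 at 30 µg/L and 6 at 50 µg/L, and median log2 fold changes were −2.95, −3.74 and −6.63. The filter takes the mean over all libraries, so genes high only in controls could pass it. Over all genes tested the medians were −0.0047, −0.036 and −0.038. The ultraviolet opsin gene opn1sw1 had 769, 606 and 660 CPM in the controls and 0.93, 2.09 and 1.79 CPM at 50 µg/L. Its log2 fold change was −3.44, −4.89 and −8.72 at 6, 30 and 50 µg/L. The red opsin gene opn1lw2 changed by −2.68, −3.42 and −6.05, and the blue opsin gene opn1sw2 by −3.22, −4.07 and −7.07. In whole embryos, fewer cells of a type and less RNA per cell cannot be told apart, for the eye or for the pineal organ.

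The rod opsin gene rho, the closest relative of exorh among these opsins, did not share this pattern in every library. Its control values were 11.9, 17.1 and 261 CPM, and control replicate 3 was the high one. Exposed libraries held 14.5 to 32.1 CPM at 6 µg/L, 18.5 to 28.9 CPM at 30 µg/L and 5.66 to 10.5 CPM at 50 µg/L. The fall of rho was called at 50 µg/L only (log2 fold change −3.54), and without control replicate 3 rho was called higher at 6 and 30 µg/L (0.69 and 0.72) and lower at 50 µg/L (−0.83). Without that library, 56.5%, 61.8% and 62.8% of all genes were called at 6, 30 and 50 µg/L. In the library with 261 CPM of rho, exorh had 3.30 CPM, the same to 2 decimals as in control replicate 2.

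**Figure D2:**
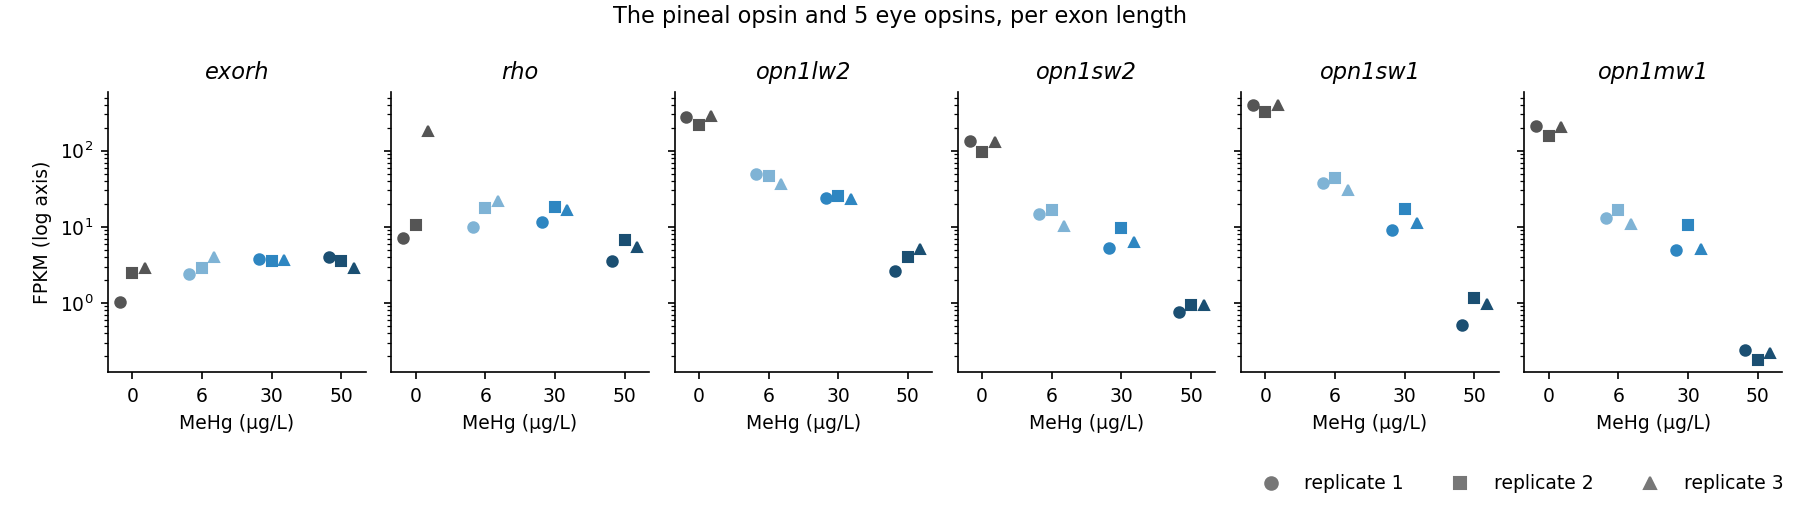
FPKM (y axis, log scale) of the pineal opsin gene exorh and of 5 eye opsin genes by MeHg concentration (x axis, µg/L); each point is a library and its shape gives the replicate number. The cone opsin means go down at each step of dose, rho has 1 control library far above all others, and no exposed library of exorh lies below the lowest control.

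Per exon length, exorh was a minor opsin in controls and among the more abundant at the highest dose. Its level was 2.14 ± 0.99 FPKM (SD, n = 3) in controls, beside 376 ± 48.2 for opn1sw1 and 262 ± 37.1 for opn1lw2. At 50 µg/L exorh was at 3.46 ± 0.56 FPKM, beside 0.88 ± 0.33 for opn1sw1, 0.88 ± 0.10 for opn1sw2 and 0.21 ± 0.03 for the green opsin gene opn1mw1. There, opn1lw2 (3.90 ± 1.27 FPKM) did not differ from exorh beyond the spread between libraries, and rho was at 5.24 ± 1.55 FPKM. The green opsin genes opn1mw1 and opn1mw2 are related copies. How reads that match both were counted is not given, so their separate levels are less certain.

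**Figure D3:**
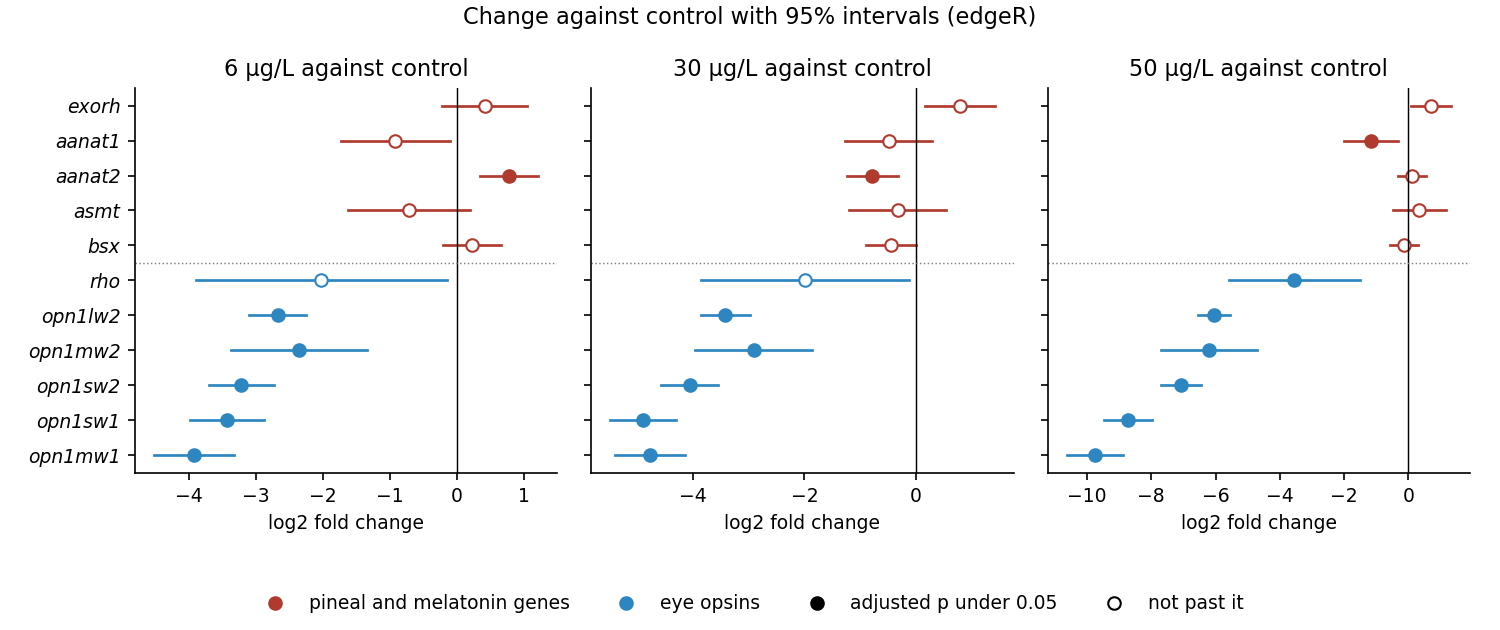
Log2 fold change against control (x axis, whose range differs between panels) of the 5 pineal and melatonin genes and the 6 tested eye opsin genes at each concentration. Points are edgeR estimates, bars their 95% intervals, and filled points passed an adjusted p under 0.05. The 5 pineal and melatonin genes lie between −1.16 and 0.80 in all panels, and the eye opsins between −9.76 and −1.99.

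To set each gene beside the eye opsins within a library, its CPM was divided by the summed CPM of the 6 tested eye opsin genes, with 0.5 CPM added to both. As aanat1 is mainly retinal and bsx is also expressed in the hypothalamus, their ratios do not compare the pineal organ with the eye. The summed eye opsins came to 1903, 1475 and 1888 CPM in controls and to 206, 224 and 179 CPM at 6 µg/L. They came to 97.4, 141 and 109 CPM in the 30 µg/L group, then to 13.0, 22 and 22 CPM in the 50 µg/L group, so that no groups overlapped. The log2 ratio of exorh to this sum was −9.19 ± 0.73 (SD, n = 3) in controls, −5.65 ± 0.47 at 6 µg/L, −4.47 ± 0.30 at 30 µg/L and −1.96 ± 0.60 at 50 µg/L. No exposed library overlapped the controls for any of the 5 ratios.

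The log2 ratio was higher in the 9 exposed libraries than in the 3 controls by 5.16 for exorh (exact permutation test, two-sided, p = 0.00455, which is the smallest p that the 220 arrangements can give). The same p was reached by aanat1 (3.87), aanat2 (4.56) and bsx (4.42), while asmt (4.38) had an exact permutation p of 0.00909. These were 5 tests with the same denominator, and a single dose of 3 libraries against 3 controls cannot go below 0.10. The differences of the ratio come mainly from the denominator, as the gene values above show. The summed eye opsins alone separated all exposed libraries from the controls. The p-values of these ratios, here and below, are therefore not a test of the 5 genes themselves. With rho alone as the reference the differences were 1.83 for exorh (exact permutation p = 0.05), 0.54 for aanat1 (p = 0.527, exact permutation) and 1.23 for aanat2 (p = 0.232, exact permutation). They rested on the 261 CPM of rho in control replicate 3. Without that library, a setting chosen after seeing the data, exorh was at 0.62 (exact permutation p = 0.382), and the other genes turned below 0, with aanat1 at −0.60, aanat2 at −0.12, asmt at −0.30 and bsx at −0.42. The exact permutation p of these 4 genes lay between 0.364 and 0.891.

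**Figure D4:**
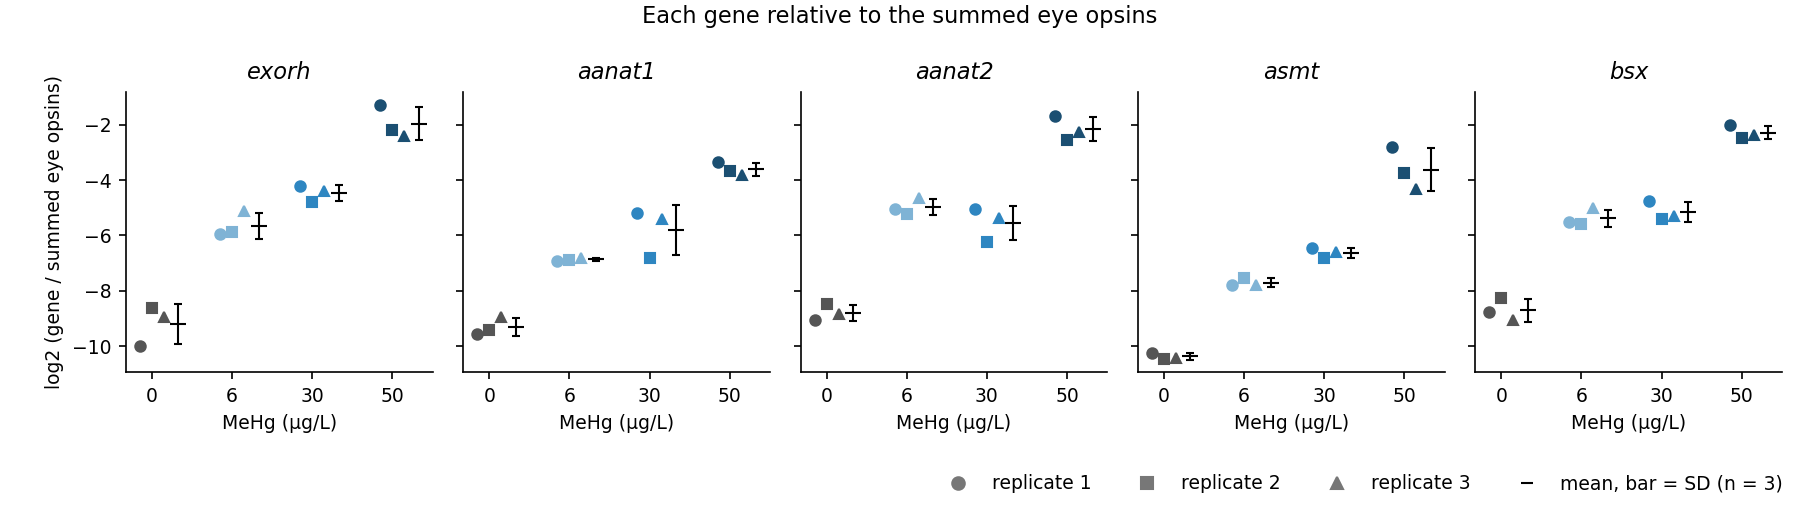
Log2 ratio of each gene to the summed CPM of the 6 tested eye opsin genes (y axis, 0.5 CPM added to both terms) by MeHg concentration (x axis, µg/L). Points are libraries and marks with bars are the mean and SD of 3 libraries; for exorh the mean goes from −9.19 in controls to −1.96 at 50 µg/L.

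The acetyltransferase gene aanat2, whose enzyme sets the nightly rate of melatonin synthesis in the fish pineal organ, differed between doses without a steady trend. Control libraries held 3.12, 3.61 and 3.61 CPM. At 6 µg/L they held 5.74, 5.49 and 6.66 CPM, at 30 µg/L 2.49, 1.38 and 2.11 CPM, and at 50 µg/L 3.68, 3.36 and 4.15 CPM. The libraries at 6 µg/L were all above the controls, those at 30 µg/L all below, and those at 50 µg/L overlapped the controls. The libraries at 30 µg/L were also below all those at 6 and 50 µg/L.

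Against control, aanat2 rose 1.72-fold at 6 µg/L (log2 0.78 ± 0.20, adjusted p = 0.0221 by edgeR) and fell 1.72-fold at 30 µg/L (log2 −0.78 ± 0.21, adjusted p = 0.0162 by edgeR). At 50 µg/L its log2 fold change was 0.11 (adjusted p = 0.694 by edgeR, 95% interval −0.33 to 0.55). Between the doses, it was 2.95-fold lower at 30 than at 6 µg/L (log2 −1.56 ± 0.21, adjusted p = 0.000439 by edgeR). It was 1.86-fold higher at 50 than at 30 µg/L (log2 0.89 ± 0.21, adjusted p = 0.0205 by edgeR). Genes called higher at 6 µg/L and lower at 30 µg/L against control numbered 38 (0.192% of those tested). The order of aanat2, up at 6 µg/L against control, down from 6 to 30 µg/L and up again at 50 µg/L, was called for 56 genes (0.283%). Both patterns were taken from the calls of aanat2 itself, so these shares are descriptions and do not show that it is unusual.

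The difference between 6 and 30 µg/L was called in all 24 alternative settings, with log2 values from −1.75 to −1.21. The calls against control were less firm. With only the compared groups fitted, those at 6 and 30 µg/L were both lost (log2 0.78 and −0.76, adjusted p = 0.0843 and 0.103 by edgeR). The rise at 6 µg/L lost its call without control replicate 1, control replicate 2, or replicates 2 or 3 at 6 µg/L (log2 0.71 to 0.84, adjusted p 0.0509 to 0.0853 by edgeR). The fall at 30 µg/L lost it without control replicate 2 (−0.73) or replicate 2 at 30 µg/L (−0.57), and the rise from 30 to 50 µg/L lost it on leaving out any single one of 4 libraries (replicates 2 and 3 at 30 µg/L, 1 and 3 at 50 µg/L).

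The retinal acetyltransferase gene aanat1 was lower at 50 µg/L than in the controls. It had 2.03, 1.68 and 3.34 CPM in controls and 1.23, 1.41 and 1.1 CPM at 6 µg/L. The 30 µg/L libraries had 2.21, 0.75 and 2.07 CPM, those of the highest dose 0.82, 1.28 and 1.08 CPM. The groups at 6 and 50 µg/L lay below all controls, and at 30 µg/L replicate 2 was the low library of a group that overlapped them.

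The fall of aanat1 at 50 µg/L was 2.24-fold (log2 −1.16 ± 0.38, adjusted p = 0.0302 by edgeR). At 6 µg/L the log2 fold change was −0.92 ± 0.38 (adjusted p = 0.116 by edgeR) and at 30 µg/L −0.48 (adjusted p = 0.327 by edgeR), neither of which is called. The call at 50 µg/L was lost without control replicate 3, the highest library (−0.81, adjusted p = 0.0699 by edgeR), and on leaving out any single library at 50 µg/L. On leaving out control replicate 3, the values at 6 and 30 µg/L were −0.56 and −0.12, and without replicate 2 at 30 µg/L the value there was −0.14. The tested cone opsin genes had log2 fold changes of −6.05 and lower at that dose.

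The methyltransferase gene asmt, for the last step of melatonin synthesis, had few reads and no difference was called. It had 1.08, 0.56 and 0.89 CPM in controls and 0.45, 0.73 and 0.31 CPM at 6 µg/L. The 30 µg/L libraries had 0.61, 0.75 and 0.64 CPM, those of the highest dose 1.43, 1.16 and 0.61 CPM, all from 5 to 26 reads per library. All exposed groups overlapped the controls. The log2 fold changes were −0.71, −0.33 and 0.35, with 95% intervals of −1.62 to 0.20, −1.19 to 0.54 and −0.48 to 1.17. Each interval ran from a fall to a rise, so the direction was not settled at any dose. The related gene asmt2 was more abundant (6.42 ± 1.05 FPKM in controls against 0.68 ± 0.22 for asmt) and was not called at any dose (−0.40, −0.42 and −0.39).

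The homeobox gene bsx had 3.86, 4.37 and 3.03 CPM in controls and 4.01, 4.13 and 5.01 CPM at 6 µg/L. In the 30 µg/L group the values were 3.15, 2.83 and 2.30 CPM, in that of the highest dose 2.86, 3.54 and 3.84 CPM. In CPM, all exposed groups overlapped the controls, and the groups at 6 and 30 µg/L did not overlap each other. In FPKM, which use summed counts without TMM factors, the controls had 3.7, 4.21 and 3.38. On that scale the libraries at 6 µg/L (4.3, 4.6 and 5.36) lay above all controls. Those at 30 µg/L (3.13, 2.79 and 2.3 FPKM) lay below them, so these overlaps depended on the scaling. Against control its log2 fold changes were 0.22, −0.44 and −0.13, none of them called. Between 30 and 6 µg/L it fell 1.59-fold (log2 −0.67 ± 0.20, adjusted p = 0.0442 by edgeR). That call was lost on leaving out any single one of the 9 exposed libraries, at log2 values from −0.78 to −0.55. Without control replicate 3, bsx was called lower at 30 µg/L than in controls (−0.60, adjusted p = 0.0188 by edgeR), where 61.8% of all genes were called.

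Within the libraries, the 5 genes did not move together. Over the 12 libraries, the Pearson correlation of log2(CPM + 1) was 0.77 for aanat2 with bsx and lay between −0.45 and 0.00 for the other pairs; the points share groups and scaling, so this is a description. The ratio of aanat2 to the pineal opsin exorh, on a log2 scale, was 1.20, 0.13 and 0.13 in controls and 1.01, 0.73 and 0.50 at 6 µg/L. In the 30 µg/L libraries it was −0.94, −1.74 and −1.15, in those of the highest dose −0.46, −0.41 and 0.17. The enzyme gene was thus the lower of the pair, in CPM, in every library at 30 µg/L and in none at 6 µg/L. The ratio of aanat2 to aanat1 was 0.62, 1.11 and 0.11 in controls and 2.23, 1.96 and 2.60 at 6 µg/L, with no overlap. In the 30 µg/L libraries it was 0.17, 0.88 and 0.032, in those of the highest dose 2.16, 1.40 and 1.95.

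The other genes of melatonin synthesis and its receptors fell or were not called. Of 14 genes on that list, members included, 9 were tested. At 6 µg/L, 1 rose and 0 fell, at 30 µg/L 0 rose and 1 fell, and at 50 µg/L 0 rose and 3 fell, with list medians of −0.13, −0.42 and −0.41. The calls at 6 and 30 µg/L were aanat2 itself. Those at 50 µg/L were aanat1 and the tryptophan hydroxylase genes tph1a (2.55 ± 0.21 CPM in controls, 1.1 ± 0.21 at 50 µg/L) and tph1b (2.97 ± 0.27 and 1.79 ± 0.25 CPM). These enzymes start serotonin synthesis, and their log2 fold changes were −1.21 (adjusted p = 0.00512 by edgeR) and −0.72 (adjusted p = 0.0152 by edgeR). The genes tph2 (−0.41) and ddc (−0.22), also on the list, were not called at 50 µg/L. The melatonin receptor gene mtnr1aa had a log2 fold change of −1.09 at 50 µg/L and was not called (adjusted p = 0.0572 by edgeR). The other 5 receptor genes were below the filter. Without control replicate 3, the counts of genes on the list that fell were 1, 3 and 4, where 56.5%, 61.8% and 62.8% of all genes were called. With all libraries, 14.4%, 30.8% and 39.5% of all genes were called at these doses in either direction. The main counts of this list were thus near or below the background.

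Of 19 genes on a list of pineal and parapineal development and identity, bsx included, 16 were tested, and 4 rose and 0 fell at 6 µg/L, 3 rose and 3 fell at 30 µg/L, and 3 rose and 2 fell at 50 µg/L. The medians were 0.48, −0.003 and −0.07. The shares of all genes called at these doses, in either direction, were 14.4%, 30.8% and 39.5%, so at 30 and 50 µg/L the counts of this list are near the background, as are those of the habenula, hypothalamus and clock lists below. With control replicate 3 left out, the shares of all genes were 56.5%, 61.8% and 62.8%. The homeobox gene otx2a rose at 30 and 50 µg/L, from 3.45 ± 2.07 CPM in controls to 10.7 ± 1.27 and 11.5 ± 1.98 CPM. The T-box gene tbx2b, needed in zebrafish to specify pineal photoreceptors and the parapineal organ, rose at all 3 doses (log2 0.51, 0.53 and 0.60). The zinc finger gene gfi1ab fell at 30 and 50 µg/L (−0.99 and −0.75). The LIM homeobox gene lhx9 rose at 6 µg/L (0.48, adjusted p = 0.0120 by edgeR) and fell at 30 and 50 µg/L (−0.52 and −0.68).

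These counts depended on control replicate 3: without it 11, 7 and 6 genes rose and 1, 5 and 3 fell, and with it as the only control 3, 1 and 1 rose and 1, 4 and 3 fell. The genes otx5 and crx, chosen after their values were seen, encode homeobox factors of pineal and retinal photoreceptors. In the controls, otx5 had 5.49, 4.98 and 34.4 CPM and crx 5.69, 9.35 and 26.7 CPM, with control replicate 3 high in both. Neither was called with all libraries. Without that library otx5 was higher at all 3 doses (2.04, 2.33 and 1.9). With it as the only control the values of otx5 were −0.66, −0.36 and −0.80. For crx the values without that library were 1.40, 0.95 and 0.42, the last not called (adjusted p = 0.145 by edgeR). With it as the only control those of crx were −0.37, −0.82 and −1.37. The part of this library in the differences was not tested further.

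The opsins outside the visual set were lower or not called. Of 32 genes, 19 were tested, and 0 rose at any dose while 4, 7 and 11 fell at 6, 30 and 50 µg/L, with medians of −0.35, −0.43 and −0.97. Of all genes, 14.4%, 30.8% and 39.5% were called at these doses in either direction. Falls alone were called for 1760 of 19821 genes at 6 µg/L, and for 17.3% and 21.9% of all genes at 30 and 50 µg/L. The counts of this list were above these shares of falls, and at 6 and 30 µg/L nearer the shares in either direction. No set test was run, so this is a description. Without control replicate 3, 2, 2 and 1 of the list rose and 6, 6 and 9 fell, where 56.5%, 61.8% and 62.8% of all genes were called. The opsin gene opn9 went from 5.0 ± 0.27 CPM in controls to 0.93 ± 0.46, 1.05 ± 0.34 and 0.40 ± 0.10 CPM, and opn6b from 3.56 ± 1.36 to 0.46 ± 0.13 CPM at 50 µg/L. The melanopsin gene opn4b, a photopigment known from retinal cells other than rods and cones, fell at 6 and 50 µg/L (−1.13 and −1.39), and opn4xb at 50 µg/L (−1.29). The list includes exorh, which is among those that rose at 30 and 50 µg/L without that library. The pineal and parapineal opsin gene parapinopsinb, named after its values were seen, had log2 fold changes of 0.39, 0.01 and −0.08, none called. Of 2 gene IDs carrying the name parietopsin, 1 was tested (8.74 CPM in controls on average); it fell at 30 µg/L (−0.44, adjusted p = 0.0483 by edgeR) and was not called at 6 or 50 µg/L (−0.36 and −0.17).

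Genes of photoreceptor transduction, some of which pineal photoreceptors also use, fell as the eye opsins did. Of 33 tested, 25 fell at 6 µg/L, 30 at 30 µg/L and 30 at 50 µg/L, and 0 rose, with medians of −1.86, −2.48 and −3.82. Of all genes, 14.4%, 30.8% and 39.5% were called at these doses in either direction. The 4 genes of the list with the smallest p at 50 µg/L were gnat2, gnb3b, gngt2b and arr3a. Without control replicate 3, 3, 2 and 2 of the list rose and 25, 29 and 29 fell. In that setting 56.5%, 61.8% and 62.8% of all genes were called. With the summed CPM of this list in place of the opsins, the log2 ratio of exorh was higher in exposed libraries by 2.31, and those of aanat1, aanat2, asmt and bsx by 1.02, 1.71, 1.53 and 1.57 (exact permutation p = 0.00455 for each, the smallest possible). These are smaller than the differences relative to the opsins.

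**Figure D5:**
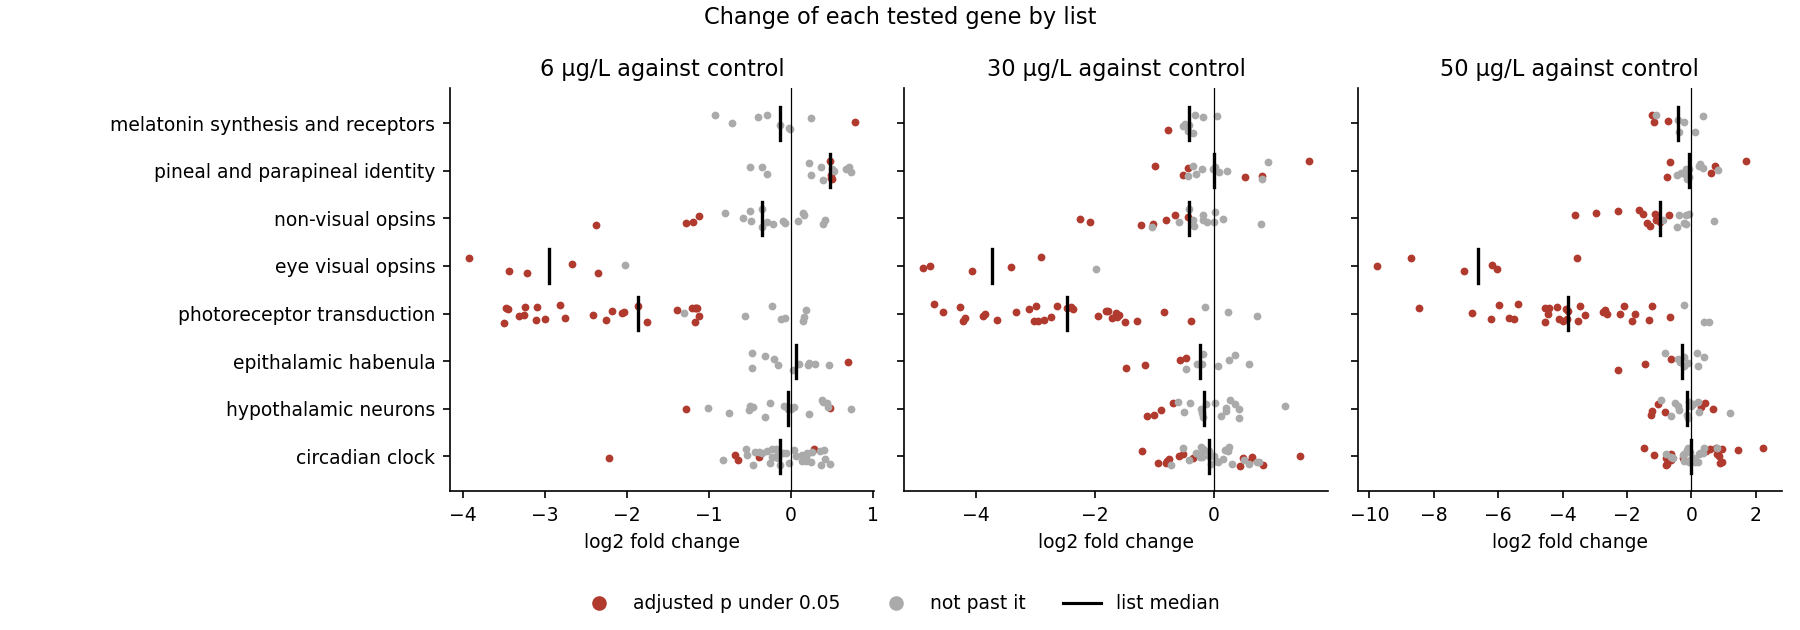
Log2 fold change against control (x axis, whose range differs between panels) of every tested gene of the 8 lists at each concentration. Each point is a gene, filled red where the adjusted p was under 0.05 and grey otherwise, and the black line is the list median. At 50 µg/L the median is −6.63 for the eye visual opsins, −3.82 for photoreceptor transduction and −0.07 for pineal and parapineal identity.

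The habenula, which lies beside the pineal organ in the epithalamus, and the hypothalamus, the other site of bsx, were described with lists of their own. Of 12 habenula genes tested, 1 rose at 6 µg/L, 4 fell at 30 µg/L and 3 at 50 µg/L, with medians of 0.06, −0.24 and −0.30. Of all genes, 17.3% and 21.9% fell at 30 and 50 µg/L. The G protein gene gng8 went from 4.13 ± 0.89 to 0.83 ± 0.35 CPM at 50 µg/L (log2 −2.29), tac3a, which encodes a neurokinin precursor, fell by 1.45 on the log2 scale, and lmo3 by 0.63. The nicotinic receptor gene chrna5 was not called (−0.43). Also not called at 50 µg/L were kctd8 (−0.83), kctd12.1 (−0.35), chata (−0.24), slc5a7a (−0.23) and pou4f1 (−0.11). Above 0 there, and not called, were kctd12.2 (0.16), nrp1a (0.21) and chrnb4 (0.38). The uncalled genes other than chrna5 were named after their values were seen. Without control replicate 3, with the larger shares of all genes called given above, 7, 5 and 4 rose and 1, 4 and 4 fell.

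Of 20 hypothalamic genes tested, 1 rose and 1 fell at 6 µg/L, 0 rose and 4 fell at 30 µg/L, and 3 rose and 4 fell at 50 µg/L, with medians of −0.03, −0.16 and −0.13. Among neuropeptide genes at 50 µg/L, crhb (log2 −1.24), npy (−1.26), vip (−1.03) and sst1.1 (−0.82) fell, while agrp (0.042), pomca (0.19) and trh (0.23) were not called. Also not called there, with values below those, were pmchl (−0.94), hcrt (−0.50), oxt (−0.40), galn (−0.15) and avp (−0.01). The gene that fell at 6 µg/L was agrp (−1.28, adjusted p = 0.0366 by edgeR), and pmchl was among those that fell at 30 µg/L (−1.12, adjusted p = 0.0411 by edgeR). The transcription factor genes otpb (0.29), dbx1a (0.68) and nkx2.1 (0.41) rose, and hmx2 (−0.41) and rx3 (−0.63) were not called; the uncalled genes are named after their values were seen. Without control replicate 3, 4, 2 and 5 rose and 3, 7 and 7 fell.

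The circadian clock controls aanat2 in the fish pineal organ. Of 39 clock genes tested, 1 rose and 4 fell at 6 µg/L, 6 rose and 8 fell at 30 µg/L, and 10 rose and 8 fell at 50 µg/L, with medians of −0.13, −0.09 and −0.01. The nuclear receptor genes rorab (95.5 ± 10.3 CPM in controls, 34.2 ± 2.1 at 50 µg/L), rorca and rorcb fell at 30 and 50 µg/L, and rorca also at 6 µg/L. The photolyase-like gene cry5 rose at 50 µg/L (log2 1.43) and the cryptochrome gene cry3a fell (−1.16). Named after their values were seen, per1b (2.21), cry1a (0.96), per3 (0.94), cry-dash (0.88), cry2 (0.87), tefa (0.80), bhlhe40 (0.57) and cry3b (0.45) also rose there. The controls of per1b ran from 2.95 to 16.9 CPM. Also falling there, and named in the same way, were roraa (−0.78), hlfa (−0.64), nr1d2a (−0.63) and nr1d2b (−0.28). The light-induced gene per2, named after its values were seen, had 18.6, 17.1 and 41.7 CPM in controls and 18.7, 24 and 23.8 CPM at 6 µg/L. The 30 µg/L libraries had 42.2, 39.4 and 49.1 CPM, those of the highest dose 38.0, 46.4 and 46.7 CPM. Control replicate 3 was thus near the groups at 30 and 50 µg/L. The rise of per2 was called at 50 µg/L only (0.75, adjusted p = 0.0437 by edgeR). At 30 µg/L its log2 fold change was the same to 2 decimals and just missed the threshold (0.75, adjusted p = 0.053 by edgeR). Without that library, 12, 15 and 16 clock genes rose and 7, 9 and 8 fell. Whether clock phase at collection had a part in the aanat2 values was not tested.

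The genes most like each of the 5 over the 12 libraries, by Pearson correlation of log2(CPM + 1), are given by name and correlation. For exorh they were nid1a (0.95), which encodes a basement membrane protein, dhx57 (0.93), ctif (0.92), pax3a (0.92) and srl (0.92). For aanat1 they were AL929222.2 (0.91), mylkb (0.91), cdk5r2b (0.90), CR550304.1 (0.88) and c7b (0.88). For aanat2 they were ms4a17a.5 (0.96), rrp36 (0.96), cldn23a (0.95), CU929418.1 (0.95) and dgke (0.94), and the means of rrp36 were 10.4, 15.6, 7.04 and 11.5 CPM from 0 to 50 µg/L. For asmt the closest was lrrc8aa (0.92), then si:ch211-246m6.4 (0.87), LO017799.1 (0.86), si:zfos-2326c3.2 (0.84) and si:ch73-185c24.2 (0.82). For bsx they were ghrb (0.94), si:dkey-4c15.14 (0.92), h2ax (0.90), si:ch73-236c18.9 (0.89) and samd1a (0.88). These are the highest of 19821 values each, over libraries that share groups, and are given as descriptions.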

How the data were processed

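Poly(A) RNA of whole zebrafish embryos was sequenced as 150-base pairs, per the labels' protocols. The deposited table gives, per Ensembl gene, the authors' raw count and FPKM in 12 libraries. The deposited FPKM could be rebuilt from the counts, exonic sizes and summed counts per library, with 100% of values within 0.005. Per the submitters' processing notes, the build was GRCz11, and the tools listed were HISAT2 2.0.1, HTSeq 0.6.1, FastQC 0.10.1, DESeq2 and cutadapt 1.9.1. Neither annotation release nor strand setting is given in the sources used here. Reads of overlapping, antisense or near-identical genes therefore cannot be told apart with certainty.

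The counts were analysed with edgeR 4.0.16 in R 4.3.3: TMM scaling, 1 quasi-likelihood fit of 4 groups, two-sided tests, Benjamini-Hochberg adjustment over 19821 genes (mean FPKM 0.5 or more), and adjusted p under 0.05 as threshold. Approximate SEs are |log2 fold change| over the root of F. Ratios to eye opsins were compared by exact permutation. Alternatives used DESeq2 1.42.0, limma 3.58.1 on log2(FPKM + 1) and log2(FPKM + 0.1), other scalings, filters and thresholds, a replicate block, and left-out libraries.

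The 5 genes and the 8 lists were chosen with earlier results of these data known. Of each list, up to 4 tested genes with the smallest p at 50 µg/L are named, and up to 4 called against the list's majority. For likeness, the 5 genes with the highest correlation are named.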

Additional observations from a re-analysis of the deposited data

How the results depend on the processing

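For the fold changes of the 5 genes, directions held except in 2 comparisons. These, on the log2 scale, were bsx at 50 µg/L against control and exorh between 50 and 30 µg/L, neither of them called. The value of bsx was 0.064 with a gene length offset, 0.18 with control replicate 3 as the only control, and −0.28 to 0.020 when 1 library was left out, the highest without control replicate 2. That of exorh was −0.21 to 0.021 when 1 library was left out, the highest without replicate 3 at 50 µg/L. With rho alone as reference the differences of the ratio were 1.83, 0.54, 1.23, 1.04 and 1.09 for exorh, aanat1, aanat2, asmt and bsx, with exact permutation p of 0.05, 0.527, 0.232, 0.318 and 0.264; without control replicate 3 as well, a setting chosen after seeing the data, they were 0.62, −0.60, −0.12, −0.30 and −0.42, with exact permutation p of 0.382, 0.364, 0.891, 0.764 and 0.564. In the other settings each stayed under an exact permutation p of 0.05, with the smallest differences when the transduction list was the reference (2.31, 1.02, 1.71, 1.53 and 1.57).

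The number of the 5 genes called moved as follows. At 6 µg/L (1 gene) it was 0 with the compared groups only, at an adjusted p under 0.01 or when a log2 fold change of 1 either way was also required, and 2 with control replicate 3 as the only control. At 30 µg/L (1 gene) it was 2 with median-of-ratios scaling, no filter, a mean FPKM of at least 2, DESeq2, limma on log2(FPKM + 1) or the length offset, and 0 with the compared groups only or either stricter threshold. At 50 µg/L (1 gene) it was 2 with DESeq2 or the length offset, and 0 with a mean FPKM of at least 2, either limma fit or an adjusted p under 0.01. Between 30 and 6 µg/L (2 genes) it was 1 with no filter, the length offset or either stricter threshold. Between 50 and 30 µg/L (1 gene) it was 0 at either stricter threshold. Leaving out 1 library gave 0 to 1, 0 to 3, 0 to 1, 1 to 2 and 0 to 1 genes in these 5 comparisons. With a mean FPKM of at least 2, aanat1 was not among the genes tested. The other causes were not tested.

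Over all genes, 2846, 6103 and 7824 were called at 6, 30 and 50 µg/L. These counts ranged from 547 (compared groups only) to 11190, from 1648 (fold threshold) to 12259 and from 2514 (fold threshold) to 12455, the highest each without control replicate 3. Between 30 and 6 µg/L, 3086 genes were called, with a range from 934 (fold threshold) to 7154 (without control replicate 3). Between 50 and 30 µg/L, 1708 were called, with a range from 666 (fold threshold) to 5880 (compared groups only). Of 1200 counts for the lists under alternatives, 201 differed from the main count by more than 1.5 times.

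Whether replicate numbers pair the samples was not settled by the correlations of the deviations from group means. Same-numbered libraries of different groups had correlations from −0.256 to 0.350, and differently numbered ones from −0.395 to 0.312. Those among the libraries numbered 1 were all above 0 (0.051 to 0.350). With the replicate block, 1 gene was called between 30 and 6 µg/L, as bsx lost its call (log2 −0.67, adjusted p = 0.0660 by edgeR), and the other comparisons kept 1 gene each. For the ratio of exorh only the permutation changes, so its difference of 5.16 is the same by construction. Its p was 0.0156 by permutation within replicate number, the smallest p that this permutation can give. Like the other p-values of the ratios, it is not a test of exorh itself.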
